A study of Mus musculus with 24 samples.

Results

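The 162 genes described here are the annotated noncoding RNA genes that were well detected in mouse T helper cells under every condition of a drug and reactivation experiment. The members were chosen by detection and brightness in the sample channel: a gene was taken when a probe of it carried a RefSeq noncoding accession and its sample signal was well above background on all 24 arrays, and the brightest such probe stood for the gene. These 162 genes came from 619 noncoding RNA genes with a probe, among 24390 genes with a RefSeq probe of any kind. A further 262 noncoding genes passed the detection test on some arrays and 195 on none. Just inside the rule lay Gm4956 and 4933432I09Rik, with mean sample intensities of 91.1 and 93, and just outside it lay Snora47 and Mir17hg, detected on 23 of 24 arrays. No histone gene was among the probes that passed, so 0 were left out on that ground.

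Each array compared RNA of cultured T helper cells, labelled with Cy3, with RNA of freshly isolated naive CD4+ CD62L+ CD25- CD44lo T cells of lymph nodes and spleens, labelled with Cy5. All cells came from female C57BL/6 mice and the labels name no engineered allele. Th1 cells were measured on 14 arrays, after 6 hr with DMSO (the vehicle), 50 nM or 500 nM JQ1, or 1 µM or 10 µM flavopiridol, and after 24 hr with DMSO or 500 nM JQ1. Th2 cells were measured on 10 arrays, after 6 hr with the same 4 drug doses and after DMSO for a time that their labels give both as 6 and as 24 hr. Every treatment was measured once in unstimulated and once in reactivated cells, so each of the 24 conditions had 1 array and no replicate. JQ1 displaces BET bromodomain proteins from chromatin, and flavopiridol inhibits P-TEFb, the kinase that releases paused RNA polymerase II into elongation. The Th1 and Th2 populations were made in culture by polarizing naive cells and are therefore models of the cells found in an animal.

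Noncoding RNA genes make RNAs that act without being translated. snoRNA host genes are transcribed by RNA polymerase II, and small nucleolar RNAs, which guide chemical modification and cleavage of ribosomal RNA, are released from their introns, while the spliced exons are often short-lived. Small structural RNAs, such as the RNAs of the spliceosome, of RNase P and of RNase MRP, have short promoters and 3′ ends of their own and mostly lack a poly(A) tail, and long noncoding RNAs such as Malat1 and Neat1 stay in the nucleus, where Neat1 is the scaffold of paraspeckles.

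By symbol, the 162 genes held 8 snoRNA hosts, 11 small structural RNAs, 2 microRNA genes or hosts, 7 long noncoding RNAs with names of their own and 134 others. The list of small structural RNAs also holds Rn28s1, the 28S ribosomal RNA, which is long and is cut from a precursor, and counts without it are given for reactivation and 10 µM flavopiridol. RefSeq annotated 72 of the 162 as lncRNA, 53 as transcribed pseudogenes, 5 as snRNA, 2 as rRNA, 2 as RNase P RNA, 1 as RNase MRP RNA, 1 as snoRNA and 3 as genes that also make protein. The accessions of the remaining 23 were absent from the name table used, so these genes are counted here and not named. A pseudogene or a repeated gene such as Rnu1b6 shares sequence with its relatives, and a probe of it can also bind their RNA, so the values of such members are uncertain in that respect.

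The reference annotation placed snoRNAs inside 7 of the 8 hosts. Snhg1 held 8 of them, Snhg12 4, Snhg16 3 (Snord1a, Snord1b and Snord1c), Snhg3 2 (Snora73a and Snora73b), Snhg17 2, Dancr 1 (Snora26) and Snhg6 1 (Snord87), whereas Snhg10 held only the microRNA gene Mir3069. Among the members counted as others, 4 held snoRNAs as well (2410006H16Rik, 4833422C13Rik, Gm4759 and 1110038B12Rik), D7Ertd143e held 7 microRNA genes (Mir291a, Mir291b, Mir292, Mir292b, Mir293, Mir294 and Mir295) and Dubr held Mir6363. The grouping by symbol thus misses hosts that the annotation shows, and counts by annotation, chosen after the values were seen, are given for reactivation, 10 µM flavopiridol and 500 nM JQ1. The promoters of the 4 hosts that changed most on reactivation are shown, from RefSeq with build GRCm38.p6, 5′ to 3′, with the 50 bases from the transcription start onwards in capitals.
Dancr, chr5:74092810-74093109, plus strand: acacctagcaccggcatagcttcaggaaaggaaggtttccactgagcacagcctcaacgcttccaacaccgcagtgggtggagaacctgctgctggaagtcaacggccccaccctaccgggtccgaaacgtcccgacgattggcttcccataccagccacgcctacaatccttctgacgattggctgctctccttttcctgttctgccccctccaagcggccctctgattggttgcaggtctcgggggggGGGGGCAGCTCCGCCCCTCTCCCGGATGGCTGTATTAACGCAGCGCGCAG
Snhg17, chr2:158361473-158361772, minus strand: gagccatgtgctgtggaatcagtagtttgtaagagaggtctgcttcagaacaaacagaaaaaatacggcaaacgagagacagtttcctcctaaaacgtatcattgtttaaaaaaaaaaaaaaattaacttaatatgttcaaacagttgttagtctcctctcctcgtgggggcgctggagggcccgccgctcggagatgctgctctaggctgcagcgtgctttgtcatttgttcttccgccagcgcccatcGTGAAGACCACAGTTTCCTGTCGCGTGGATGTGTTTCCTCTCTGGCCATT
Snhg16, chr11:116671410-116671709, plus strand: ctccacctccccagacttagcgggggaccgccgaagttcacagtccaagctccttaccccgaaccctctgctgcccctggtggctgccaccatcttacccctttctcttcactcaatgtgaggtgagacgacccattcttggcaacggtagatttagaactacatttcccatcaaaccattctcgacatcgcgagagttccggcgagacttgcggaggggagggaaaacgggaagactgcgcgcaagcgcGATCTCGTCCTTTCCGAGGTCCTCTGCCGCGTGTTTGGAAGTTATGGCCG
Snhg3, chr4:132353637-132353936, minus strand: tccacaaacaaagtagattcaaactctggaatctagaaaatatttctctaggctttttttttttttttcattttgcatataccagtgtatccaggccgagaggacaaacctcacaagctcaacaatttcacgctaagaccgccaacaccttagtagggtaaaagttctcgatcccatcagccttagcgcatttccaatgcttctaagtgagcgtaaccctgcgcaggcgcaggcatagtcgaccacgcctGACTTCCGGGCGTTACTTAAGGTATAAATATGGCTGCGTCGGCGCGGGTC
Snhg17 had 2 promoters in the table, of which the first is shown. Motifs were searched on both strands of the 300-base windows. The E-box CACGTG occurred in 0 of the 8 host promoters listed (7 genes) and in 7.15% of 32851 promoters of all genes. The Ets-type motif CCGGAA occurred in 3 of the 8, against 14.9% of all promoters, and CCAAT in 3 of the 8, against 37.4%. Dancr held CCAAT at -112, -71 and -23, counted from the start site, and Snhg3 held TATAAA at 23 and CCGGAA at 4. The host promoters had a median of 18 CpG dinucleotides, the promoters of all members listed 17 and those of all genes 7. These matches describe the letters of the windows, and binding by any factor was not measured. The promoter table held 57 of the 162 genes and no small structural RNA, and motif and CpG values of the latter are therefore not given.

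On the arrays as a whole, the share of probes with sample signal well above background was 36.3% to 42.2% with flavopiridol and 44.6% to 52.6% on the other 16 arrays. Each fit below rests on effects that recurred over cell contexts, or over treatments and states for Th1 against Th2 cells. Limma's moderated test was used with Benjamini-Hochberg adjustment over all genes tested, and a gene was called at an adjusted p below 0.05. All log2 values of an array are ratios to naive cells, and all log2 changes are differences between such ratios after loess normalization, so a change is relative to the bulk of RNAs on the array. The labelled identities were checked with 5 markers each. All 5 Th1 genes (Tbx21, Ifng, Cxcr3, Il12rb2 and Il18r1) were called higher in Th1 cells and 3 of 5 Th2 genes higher in Th2 cells. The reactivated Th2 arrays with DMSO or 50 nM JQ1 nevertheless held Tbx21 at 4.64 and 3.34 and Ifng at 6.2 and 5.7 (0.94 and 4.79 with 500 nM JQ1), where the unstimulated Th2 arrays of those treatments were at 0.65 or below for both genes. Conversely, the reactivated Th1 array of 6 hr with DMSO held Il4 at 3.07, Il13 at 3.71 and Il1rl1 at 5.51. Its unstimulated partner had 0.12, 0.23 and 2.42, and Gata3 and Il5 were at -0.33 and 0.46 after reactivation. Il1rl1 was higher there than on the reactivated Th2 array with DMSO (3.91). B-cell markers were lower in Th1 than in Th2 cells (4 of 4 called) and lower with 10 µM flavopiridol and 500 nM JQ1 (3 of 4 called each), and the mean of their 4 log2 ratios was 0.92 to 1.16 in Th1 and 2.44 to 2.51 in Th2 cells with DMSO, 0.12 to 0.19 and 1.57 to 1.74 with 500 nM JQ1, and -0.17 to -0.14 and 1.32 to 1.41 with 10 µM flavopiridol. Of 4 cytotoxic T and NK cell markers, Cd8b1 was detected on 12 Th1 and 9 Th2 arrays, Cd8a on 13 and 0, Ncr1 on 1 array and Klrb1c on none. Of the 2 that were tested, both were called higher with 1 µM flavopiridol and 1 with 10 µM (medians 0.87 and 0.80), and both lower with 500 nM JQ1 (median -0.43). Cd8b1 had log2 ratios of -1.85 to -0.82 with DMSO and of -0.66 to 0.04 with flavopiridol. Cd8a lay above the naive level in Th1 cells, at 0.86 to 1.87 with DMSO and 1.92 to 2.44 with flavopiridol. On the Th2 arrays Cd8a was at -0.24 to 0.07. Of 4 myeloid markers, Csf1r and Itgam were detected on all 24 arrays, Cd14 on 3 and Lyz2 on none. With flavopiridol Csf1r had log2 ratios of 1.09 to 2.06, against -0.48 to 0.22 on the other arrays, and Itgam had -3.50 to -1.47, against -1.15 to -0.55. The part of these cells in any result below was not tested. In bulk RNA, fewer cells of a type cannot be told apart from less RNA per cell.

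**Figure D1:**
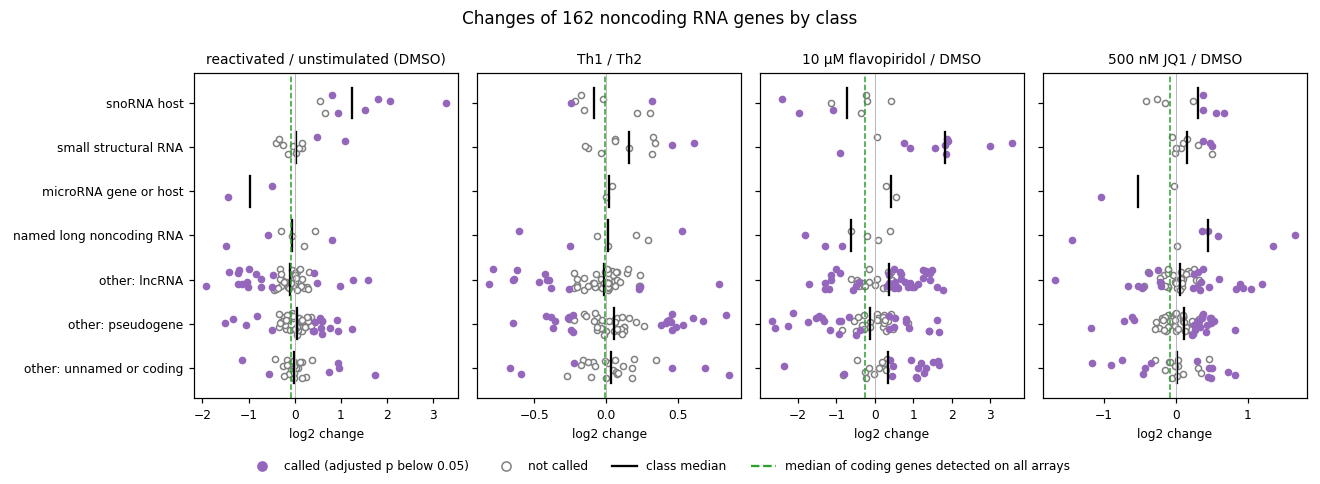
Log2 change of each of the 162 noncoding RNA genes in 4 comparisons, by class. Filled points were called at an adjusted p below 0.05, black bars are class medians and the dashed line is the median of the 8853 coding genes detected on all arrays. The 8 snoRNA hosts lie to the right in the reactivation panel (median 1.23), and the 11 small structural RNAs lie to the right in the flavopiridol panel (median 1.83). Spike-in scaling brings the latter median to -0.09 and lowers the median of all genes as well.

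Reactivation without drug was asked over the 3 pairs of DMSO arrays, Th1 cells at 6 hr, Th1 cells at 24 hr and Th2 cells. Of the 8 snoRNA hosts 6 rose, with Dancr, a host whose spliced RNA is known to restrain differentiation of progenitor cells, rising most. Of the 11 members with a snoRNA annotated inside, 5 rose and 1 fell, 4833422C13Rik at -0.74 (limma adjusted p = 0.00313). The other 3 outside the list by symbol were not called, with -0.41 for 2410006H16Rik, below 0 in all 3 pairs (adjusted p = 0.0543), 0.11 for Gm4759 and 0.31 for 1110038B12Rik. The median change of these 11 was 0.65. Of the 162 genes, 55 were called, 30 higher and 25 lower, where 48% of all 14279 genes tested were called (21.2% higher and 26.9% lower) and 54.5% of the coding genes held to the same detection rule. The share over the noncoding genes was thus lower than the background, and the median change of the hosts was 1.23, against -0.04 over all genes tested. The split of the calls varied with the scaling, from 23 higher and 29 lower with median centring to 41 and 19 with spike-in centring and 37 and 19 with loess values shifted to the spike-ins, which moved the median of all genes to -0.10, 0.18 and 0.18, and the 6 hosts were higher in all of them.

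Dancr had log2 ratios of -1.97, -1.60 and -1.77 in the unstimulated Th1 6 hr, Th1 24 hr and Th2 cells and of 1.24, 1.60 and 1.67 in the reactivated ones. The groups were far apart, below the naive level before and above it after reactivation. The change was 3.28 ± 0.13 (SE, 3 pairs), or 9.73-fold, with a limma adjusted p of 9.18e-05. Snhg17 went from -1.34, -0.88 and -1.58 to 0.47, 0.82 and 1.11 over the same contexts. That is a change of 2.06 ± 0.21 (limma adjusted p = 0.000645, 3 pairs), again from below to above the naive reference with no overlap.

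Snhg16, which carries the 3 Snord1 RNAs, had unstimulated ratios of -0.53, -0.82 and -1.004 and reactivated ratios of 0.73, 1.03 and 1.30, a change of 1.80 ± 0.21 (limma adjusted p = 0.000906). Snhg3, host of both Snora73 RNAs, was already above the naive level before reactivation, at 0.73, 0.41 and 0.43, and reached 1.85, 2.07 and 2.23, a change of 1.53 ± 0.17 (limma adjusted p = 0.000773). Neither gene's groups overlapped. Smaller rises were called for Snhg12 (0.94) and Snhg10 (0.80), and Snhg12 lost its call without the Th1 24 hr pair (adjusted p = 0.0782). Snhg1 and Snhg6 had changes of 0.65 and 0.55 that were not called; in Th1 cells at 6 hr Snhg1 was at 1.19 before and 1.06 after reactivation.

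The proteins that assemble with snoRNAs gave a like count. Of 13 snoRNP protein genes tested, 12 were called higher and 1 lower, with a median change of 1.83, where 21.2% of all genes were higher. Among them were Nop56 (1.84) and Nop58 (2.29), core proteins of C/D-box particles, and Dkc1 (2.35), the pseudouridine synthase of H/ACA-box particles, while Nufip1, an assembly factor, fell by 0.67. Of the RNase P and MRP proteins 9 of 11 were called higher and of the nuclear exosome 10 of 15.

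Of the 11 small structural RNAs 2 were called on reactivation, Snora74a, an H/ACA-box snoRNA, at 1.09 (limma adjusted p = 0.00137) and the ribosomal RNA Rn28s1 at 0.49 (limma adjusted p = 0.0473). Snora74a was at 0.22, -0.27 and -0.17 in unstimulated and 1.06, 1.04 and 0.95 in reactivated cells, without overlap. The call of Rn28s1 was lost when the Th1 6 hr or the Th1 24 hr pair was left out (adjusted p = 0.202 and 0.221). The median of the 11 was 0.02, and without Rn28s1 1 of 10 was called and the median was -0.01.

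Malat1 and Neat1 fell on reactivation. Neat1 stood at 0.03, 0.40 and 0.60 in unstimulated cells and at -1.04, -1.08 and -1.36 in reactivated cells, and it fell by 1.498 on the log2 scale (SE 0.19, limma adjusted p = 0.0012). Malat1 fell by 0.58 (limma adjusted p = 0.0127), from -0.60, -0.54 and -0.75 to -0.99, -1.10 and -1.54, and its call was lost without the Th1 24 hr pair (adjusted p = 0.0615). For both genes every reactivated array lay below every unstimulated one. Mirt1, counted with the microRNA genes by its symbol although the annotation places none inside it, fell by 1.45, and Dleu2, the host of miR-15a and miR-16-1, fell by 0.49, with a call lost without the Th1 6 hr or the Th1 24 hr pair (adjusted p = 0.0977 and 0.0707). Among the other members with microRNAs inside, Dubr fell by 1.14 (limma adjusted p = 0.00168) and D7Ertd143e had -0.32 and was not called. Pvt1, the neighbour of Myc, was called higher at 0.81 by its brightest probe, while its other probe gave 0.17, and it lost its call without the Th1 24 hr pair (adjusted p = 0.0763). The paraspeckle proteins gave the opposite direction to Neat1, with 5 of 6 called higher and 1 lower.

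The mature microRNAs inside Dleu2 are shown because they share a seed, bases 2 to 8, given in capitals. Their own levels were not measured by these probes.
mmu-miR-15a-5p: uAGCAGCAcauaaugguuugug
mmu-miR-16-5p: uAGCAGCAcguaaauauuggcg
The RefSeq positions are chr14:61632075-61632096 and chr14:61631936-61631957 on the minus strand of build GRCm38.p6.

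Among the 134 other members, 21 were called higher and 21 lower, where 21.2% of all genes tested were higher and 26.9% lower. The largest rises that held in every pair were those of 4930417O13Rik (1.57), 1700001L05Rik (1.26), Gm9199 (1.24) and Trmt61b (0.99), beside 1 gene without a symbol. The largest falls had changes of -1.92 for 2010016I18Rik, -1.504 for the pseudogene Gpr137b-ps, -1.43 for Gm12216, -1.33 for the pseudogene Pisd-ps3 and -1.24 for Foxd2os. 2010016I18Rik was at -2.27, -1.73 and -1.81 before and at -3.44, -3.85 and -4.26 after reactivation.

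**Figure D2:**
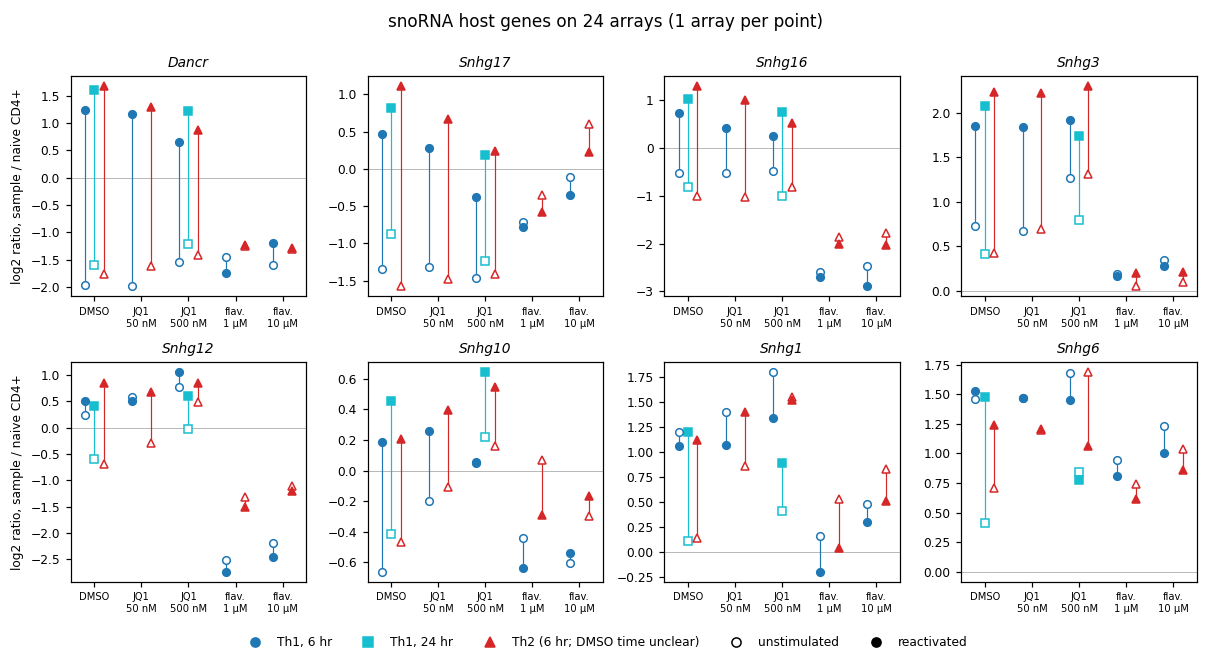
Log2 ratio of sample over naive CD4+ cells for the 8 snoRNA hosts on all 24 arrays, with treatments along the horizontal axis. Open symbols are unstimulated and filled symbols reactivated cells, joined within a context, and every point is 1 array with no error bar. Dancr spans 3.20 to 3.44 between the joined DMSO points and lies at -1.74 to -1.19 on all 8 flavopiridol arrays.

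The rise of the hosts was then followed under drug. Over the 8 hosts and 3 DMSO pairs, 23 of 24 reactivation differences were above 0, from -0.13 to 3.44 with a median of 1.19. Under 50 nM JQ1 the range was -0.33 to 3.15 with a median of 0.95 over 2 pairs, and under 500 nM JQ1 it was -0.62 to 2.44 with a median of 0.64 over 3 pairs. With flavopiridol, over 4 pairs, the differences lay between -0.49 and 0.40, and 7 of 32 were above 0. In the plot of the hosts, the open and filled symbols accordingly lie close together on the flavopiridol arrays.

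Whether the drug effect itself differed between reactivated and unstimulated cells was tested as an interaction. Every 6 hr comparison of JQ1 or flavopiridol with DMSO used the same 4 DMSO arrays as controls, of which the Th2 pair may stand for 24 hr and not 6 hr, so that in Th2 cells drug and time may be mixed. For 10 µM flavopiridol, 15 of the 162 genes were called, 5 higher and 10 lower, against 14.5% of all genes tested (8.03% higher and 6.49% lower). Among the lower ones were the hosts Dancr at -3.11 ± 0.26 (limma adjusted p = 0.00188), Snhg17 at -2.56 ± 0.34 (0.00551), Snhg16 at -2.12 ± 0.41 (0.0182) and Snhg3 at -1.44 ± 0.23 (0.00983). With median centring 8 members were higher and 3 lower, with spike-in centring 0 and 3, and with the shifted values none was called. In Dancr the drug difference was 0.38 and 0.46 in unstimulated Th1 and Th2 cells and -2.43 and -2.95 in reactivated ones. Snhg17 had 1.23 and 2.18 in unstimulated cells and -0.82 and -0.89 in reactivated ones, so its direction turned with the state of the cells. The count over the 162 genes rested on few arrays and went from 2 to 36 when 1 array was left out. It was 36 without the reactivated Th1 DMSO array, 8 and 9 without the unstimulated and reactivated Th2 DMSO arrays, 3 and 5 without those of Th1 cells with 10 µM flavopiridol and 2 without either Th2 array of that dose. Without the unstimulated Th1 or the unstimulated Th2 context it was 0.

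The same 4 hosts were called lower in the interaction of 500 nM JQ1 with reactivation. The differences were smaller, -1.08 for Dancr (limma adjusted p = 0.00441), -0.89 for Snhg17, -0.75 for Snhg16 and -0.64 for Snhg3 (0.0108, 0.019 and 0.0336). In Dancr JQ1 gave 0.43 and 0.35 in unstimulated and -0.59 and -0.80 in reactivated Th1 and Th2 cells. In all, 22 members were called, 14 higher and 8 lower, against 9.45% of all genes (4.24% higher and 5.22% lower). The split was 5 and 11 with median centring, and 0 higher with 130 and 144 lower under the spike-in scalings. Leaving out 1 array gave 8 to 22, with 8 without either Th2 DMSO array, 12 without the unstimulated Th2 array with JQ1 and 14 without the unstimulated Th1 DMSO or the reactivated Th1 JQ1 array, and leaving out the unstimulated Th2 context gave 4. Dancr lost its call only without that context (adjusted p = 0.0513) and in the fit without contexts, whereas Snhg3 lost it in most of the leave-outs (0.0535 to 0.223 where lost). Higher calls included Mirt1 at 1.57, Neat1 at 1.36, Rnu2-10 at 0.99, Malat1 at 0.80 and Rprl2 at 0.65, of which Rnu2-10, Malat1 and Rprl2 turned below 0 under both spike-in scalings (-0.52 to -0.12). These scalings moved the median of all genes from -0.01 to -0.99 and -1.18, so signs under them are not read as support for any gene. Mirt1 already lay near its lowest level on the reactivated DMSO arrays, as given below.

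Flavopiridol at 10 µM was compared with DMSO over 4 contexts, Th1 and Th2 cells in both states, in a fit of 12 arrays with both doses. Small structural RNAs stood higher than the rest of the RNAs and 3 snoRNA hosts and 3 named long noncoding RNAs stood lower. Of the 162 genes 95 were called, 59 higher and 36 lower, where 48.3% of all 14182 genes tested were called, 16.7% higher and 31.6% lower. Coding genes under the same detection rule were called in 52.7% of cases, with 18% higher and 34.7% lower. The split depends on the scaling: with median centring 20 members were higher and 85 lower, with spike-in centring 2 and 127, and with loess values shifted to the spike-ins 21 and 68. These settings moved the median of all genes from -0.18 to -0.96, -1.59 and -0.88, so the directions given here are relative to the bulk of RNAs. The detection rule bounds how far a member could fall, since 54 of 216 noncoding genes detected on all 16 arrays without flavopiridol were not detected on all 8 with it and are not members. No slide held flavopiridol arrays together with their own DMSO controls, so that slide and drug cannot be told apart within these pairs. A fit with slide as a random block called 67 members.

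Of the 11 small structural RNAs 9 were called higher and 1 lower, with a median change of 1.83, against -0.18 over all genes. Without Rn28s1 these were 9 and 1 of 10, with a median of 1.84. The U3 snoRNA Rnu3b1, which takes part in the cleavage of the ribosomal precursor, had DMSO ratios of 0.21, -0.33, -0.34 and -1.10 in unstimulated Th1, reactivated Th1, unstimulated Th2 and reactivated Th2 cells. With 10 µM flavopiridol they were 3.02, 2.83, 3.55 and 3.33, and all 4 lay far above the controls. The change was 3.57 ± 0.27 (limma adjusted p = 3.75e-05), or 11.9-fold. Rnu7, the U7 snRNA of histone mRNA 3′ end processing, was at -0.11, -0.27, -0.28 and -0.36 with DMSO and at 2.43, 2.97, 2.45 and 3.18 with the drug. It changed by 3.01 ± 0.19 (limma adjusted p = 1.9e-05), and its groups did not overlap either.

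Rpph1 (1.89), the RNA of RNase P, Rprl2 (1.83), annotated as another RNase P RNA, Rmrp (1.56), the RNA of RNase MRP, and the spliceosomal RNAs Rnu2-10 (1.85), Rnu12 (0.93) and Rnu1b6 (0.75) were called higher as well. Snora74a at 1.90 (limma adjusted p = 0.0127) lost its call with slide as a random block (0.0523). Rn4.5s, a repetitive rodent RNA made by RNA polymerase III, was called lower at -0.91, with the call lost in the same setting (0.106), and Rn28s1 had a change of 0.07. Under spike-in centring Rpph1, Rprl2, Rmrp, Rnu12 and Snora74a took values between -0.12 and -0.09, while Rnu3b1 and Rnu7 were at least 2.52 and 1.09 in every setting. Comparing all 8 flavopiridol arrays of both doses with the 16 others, 7 of the 11 did not overlap, all of them higher, where 7.79% of all genes were higher and 14.4% lower without overlap. Rnu3b1 ranged from 2.83 to 3.55 with flavopiridol (median 3.16) and from -1.10 to 0.48 without (median -0.12). Rmrp ranged from 0.13 to 1.25 against -1.31 to -0.27. The labelling kit primes RNA through its poly(A) tail, which most of these RNAs lack, and the part of RNA tailing or priming in these values was not tested.

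**Figure D3:**
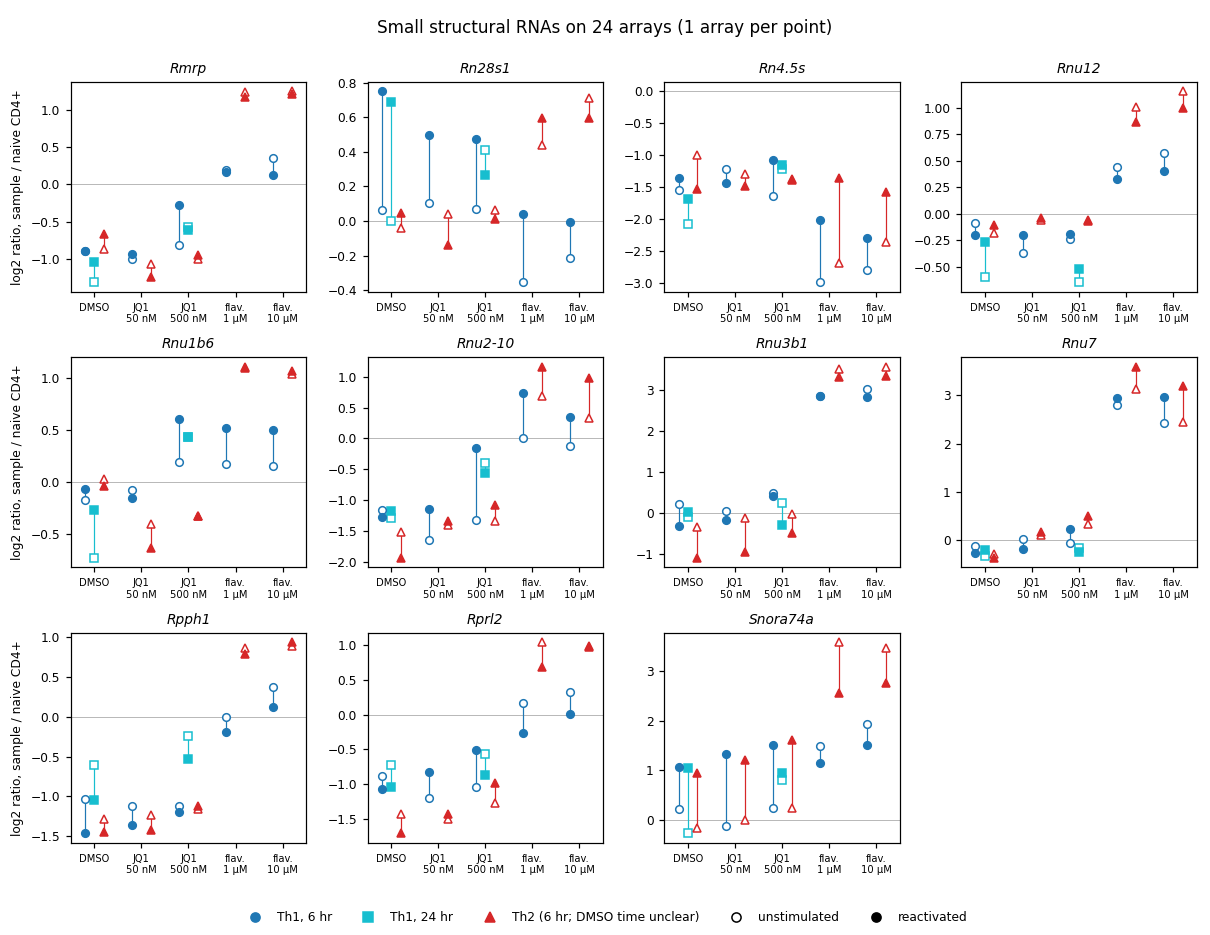
Log2 ratio of sample over naive CD4+ cells for the 11 small structural RNAs on all 24 arrays, drawn as in the plot of the hosts, 1 array per point. Rnu3b1 and Rnu7 lie at 2.43 or above on the 8 flavopiridol arrays and at 0.51 or below on the 16 others. Rmrp, Rpph1, Rprl2 and Rnu12 are also separated in these loess values. Spike-in centring, which also lowers the median of all genes, takes their 10 µM changes to between -0.12 and -0.09.

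Of 10 RNase P and MRP protein genes tested, 8 were called lower with 10 µM flavopiridol, with a median of -1.61, where 31.6% of all genes were lower. Of 13 Integrator subunits, which cut the 3′ ends of small nuclear RNA transcripts, 8 were lower and 1 higher. Also 9 of 15 nuclear exosome genes, 5 of 9 nonsense-mediated decay genes, 4 of 7 genes of the 7SK particle and P-TEFb, and 4 of 13 snoRNP protein genes were called lower, the last a share near that of all genes, with 1 snoRNP gene, Nop10, called higher at 0.80.

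Among the hosts, Snhg16 had DMSO ratios of -0.53, 0.73, -1.004 and 1.30 in unstimulated Th1, reactivated Th1, unstimulated Th2 and reactivated Th2 cells and 10 µM flavopiridol ratios of -2.47, -2.90, -1.78 and -2.02. It fell by 2.42 (SE 0.44, limma adjusted p = 0.00227), and all drug values lay below all control values. Snhg12 fell by 1.97 (limma adjusted p = 0.00345), from between -0.68 and 0.84 to between -2.45 and -1.10. Snhg3 fell by 1.08 (limma adjusted p = 0.0168), with its call lost with slide as a random block (0.0843). Snhg1, Snhg6, Snhg10, Snhg17 and Dancr had changes between -1.14 and 0.43 that were not called. These 3 called hosts also lay below all 16 other arrays on all 8 flavopiridol arrays. The 4 other members with an annotated snoRNA inside did not share a direction. 2410006H16Rik, with Snord49a, Snord49b and Snord65, was at -1.19 (limma adjusted p = 0.0144) and Gm4759 at -1.75 (0.00536), 4833422C13Rik at 1.62 (0.000192), and 1110038B12Rik, with Snord52, had 0.43 and was not called. In all, 1 of the 11 members with a snoRNA inside was called higher and 5 lower. Of the members with microRNAs inside, D7Ertd143e was at -0.996 (limma adjusted p = 0.0037) and Dubr at -1.70 (0.000188). D7Ertd143e, Gm4759 and 1110038B12Rik were named after their values were seen.

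Malat1 fell by 1.81 (SE 0.22, limma adjusted p = 0.000251), from -0.60, -0.99, -0.75 and -1.54 to -2.93, -3.18, -2.45 and -2.58, without overlap. Neat1 fell by 1.31 at an adjusted p of 0.0419, which was lost in 15 of 25 alternative settings (0.123 with slide as a random block). Its Th1 values were -2.63 and -2.76 and its Th2 values -0.72 and -0.89 with the drug, against 0.03, -1.04, 0.60 and -1.36 with DMSO, so the groups overlapped. Norad fell by 0.86 by its brightest probe, whereas its 4 probes ranged from -0.86 to 0.17, and the mean over its probes was not called. Xist, Airn, Tug1 and Pvt1 had changes between -0.61 and 0.39 that were not called. The 2 probes of Pvt1 stood at 0.09 and 1.37 and those of Xist at 0.39 and 1.44.

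**Figure D4:**
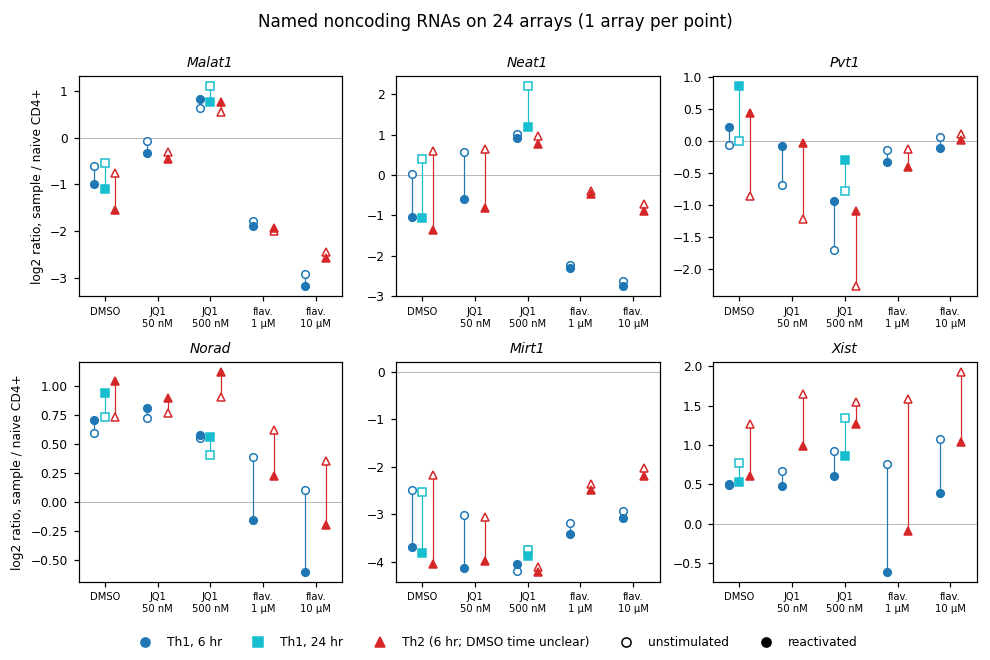
Log2 ratio of sample over naive CD4+ cells for Malat1, Neat1, Pvt1, Norad, Mirt1 and Xist on all 24 arrays, drawn as in the plot of the hosts, 1 array per point. Malat1 lies between -3.18 and -1.78 on the flavopiridol arrays and between 0.54 and 1.101 on the 6 arrays with 500 nM JQ1. The reactivated Malat1 and Neat1 points lie below the unstimulated ones in the DMSO column.

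The 134 other members held 50 called higher and 29 called lower with 10 µM flavopiridol, where 16.7% of all genes tested were higher and 31.6% lower. Counts by annotation cover all members, not only these 134. Of the 53 pseudogenes 11 were higher and 16 lower, and of the 72 lncRNAs 26 were higher and 17 lower. The 72 include hosts and named lncRNAs described above, such as Dancr and Malat1. Pseudogenes were thus lower more often than higher, like all genes tested, and lncRNAs higher more often than lower. The difference between these counts was not tested. Gm11961 (1.77), Gm4956 (1.67), the noncoding transcript of Tmem80 (1.66) and 4833422C13Rik (1.62) were among the 5 highest, beside 1 gene without a symbol, and all 4 turned to between -0.34 and -0.17 under spike-in centring. The 5 largest falls held 1 gene without a symbol and 4 transcribed pseudogenes, with -2.68 for Gm9731, -2.60 for Gm6578, -2.26 for Gm8801 and -2.13 for Fbxl12os. Gm9731 was at -0.51, 0.09, 0.10 and 0.03 with DMSO and at -2.92, -2.97, -2.55 and -2.57 with the drug, in the same order of contexts. The probe of the coding transcript of Tmem80 changed by 0.39, and for Zfp672 the noncoding probe gave 1.1 and the coding one -0.94, so the probes of a gene need not move together.

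The same fit gave the 1 µM dose. In all, 89 members were called, 52 higher and 37 lower (50.8% of all genes, 17.6% higher and 33.3% lower), with a split of 19 and 82, 3 and 108 or 22 and 53 under median centring, spike-in centring and the shifted values, including 9 of 11 small structural RNAs higher and 5 of 8 hosts lower, against 9 and 3 at 10 µM. Rnu3b1 changed by 3.51 and Rnu7 by 3.36 at this dose, against 3.57 and 3.01 at 10 µM, Snhg16 by -2.42 at both, and Malat1 by -0.94 against -1.81. The difference between the doses was not tested. No member was called in the interaction of 10 µM flavopiridol with cell type, by limma with an adjusted p, where 0.0212% of all genes were. An unadjusted limma p under 0.05 was found for 30 of the 162 members and 1867 of 14182 genes tested. Leaving out any array or context gave 0 called members as well.

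**Figure D5:**
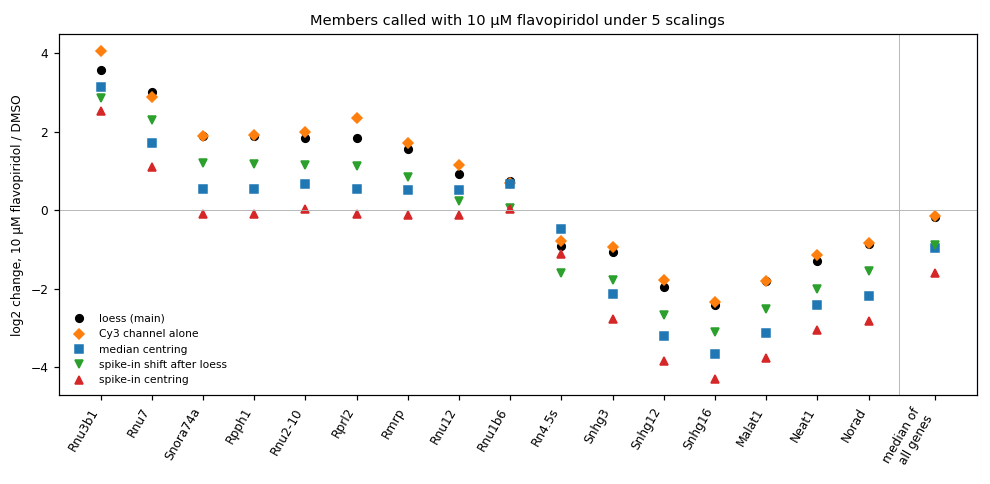
Log2 change with 10 µM flavopiridol against DMSO of 16 called members under 5 ways of scaling the arrays, with the median of all genes at the right. Rnu3b1 (2.52 or more) and Rnu7 (1.09 or more) lie above 0 and Snhg12, Snhg16 and Malat1 below 0 under all 5, while Rpph1, Rprl2, Rmrp, Rnu12 and Snora74a drop below 0 under spike-in centring, where the median of all genes is -1.59. Median centring and both spike-in scalings lower the median of all genes, so falls that stay below 0 under them are not read as support.

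JQ1 at 500 nM was compared with DMSO over the same 4 contexts. Malat1 and Neat1 rose and Pvt1 and Mirt1 fell, and the members were called higher more often than lower. Of the 162 genes 72 were called, 51 higher and 21 lower, where 45.1% of all 14765 genes tested were called (17.5% higher and 27.6% lower) and 51.7% of coding genes under the same rule. The split again depends on the scaling: it was 10 higher and 44 lower with median centring, 3 and 40 with spike-in centring and 3 and 23 with loess values shifted to the spike-ins, with the median of all genes moving from -0.06 to -0.26, -0.48 and -0.50. The reactivated Th1 array with 500 nM JQ1 had the highest spike-in level after loess, 0.76, where the DMSO arrays lay between -0.77 and -0.27.

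Malat1 had DMSO ratios of -0.60, -0.99, -0.75 and -1.54 and JQ1 ratios of 0.63, 0.83, 0.54 and 0.76 in unstimulated Th1, reactivated Th1, unstimulated Th2 and reactivated Th2 cells. It was below the naive level in all controls and above it in all 4 treated cultures. The change was 1.66 ± 0.15 (limma adjusted p = 1.75e-05), or 3.16-fold, and the call held in all 26 alternative settings. Neat1 went from 0.03, -1.04, 0.60 and -1.36 to 1.01, 0.91, 0.98 and 0.77, without overlap, a change of 1.36 ± 0.25 (limma adjusted p = 0.0013). These 4 JQ1 arrays lay within 0.77 to 1.01 in both states, whereas Th1 cells after 24 hr of JQ1 had 2.20 unstimulated and 1.19 reactivated.

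Pvt1 fell by 1.44 (SE 0.09, limma adjusted p = 2.33e-06), from -0.06, 0.21, -0.86 and 0.44 to -1.71, -0.94, -2.28 and -1.09. Its groups did not overlap, its call held in all 26 settings, and its second probe gave -0.69. Mirt1 fell by 1.04 (limma adjusted p = 0.00855), with values of -2.50, -3.69, -2.16 and -4.04 with DMSO and of -4.20, -4.05, -4.12 and -4.21 with JQ1. Its drop was seen mainly in unstimulated cells (-1.70 and -1.95, against -0.35 and -0.17 in reactivated ones), and the interaction given above was called. The reactivated DMSO values already lay near -4.21, the lowest on the 16 arrays without flavopiridol, which left little room for a fall. The part of such a floor in the interaction was not tested. The mean fall of Mirt1 lost its call without the unstimulated Th1 or the unstimulated Th2 context (adjusted p = 0.061 and 0.0538). Tug1 (0.59), Airn (0.46) and Xist (0.36) were called higher, of which Airn and Xist turned to -0.11 and -0.19 under spike-in centring, and Norad had 0.02.

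The hosts called higher with 500 nM JQ1 were Snhg1 (0.68), Snhg12 (0.57), Snhg10 (0.39) and Snhg3 (0.38), 4 of 8, and none was called lower. By annotation 5 of the 11 members with a snoRNA inside were called higher and none lower. Snhg1 and Snhg12 had their largest differences, 1.42 and 1.18, in unstimulated Th2 cells, against 0.61 and 0.53 in unstimulated Th1 cells. Between the Th1 DMSO arrays of 24 and 6 hr, unstimulated, Snhg1 differed by -1.09, Snhg12 by -0.85 and Snhg3 by -0.32, and the parts of time and slide in the Th2 values were not tested. Snhg10 and Snhg3 fell to -0.16 under spike-in centring, and all 4 were uncalled under median centring. Within the Th1 pairs that share a slide, at 6 and 24 hr, 1 host was called higher and 1 lower and 47 members in all. Of the small structural RNAs Rnu7 (0.51), Rnu3b1 (0.47) and Snora74a (0.39) were called higher, and Rnu3b1 and Snora74a turned to -0.07 and -0.18 under spike-in centring. In the lists of partner proteins, 7 of 11 RNase P and MRP proteins and 6 of 13 snoRNP proteins were called lower, against 27.6% of all genes, and none of either list higher.

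The other members rose most for 5031434O11Rik (1.21), 2410006H16Rik (1.04), Peg13 (0.93), Dubr (0.90) and Gt(ROSA)26Sor (0.83). Falls were led by 4930417O13Rik (-1.69), the pseudogene 5730416F02Rik (-1.18) and the noncoding transcript of Tmem80 (-0.91), whose coding probe gave -1.11, beside 2 genes without a symbol among the 5 largest falls. 2410006H16Rik was at 1.00, 0.43, 0.67 and 0.13 with DMSO and at 2.05, 1.45, 1.88 and 1.03 with JQ1. 4930417O13Rik was also the one member called at 50 nM, where it fell by 0.51 (limma adjusted p = 0.0416). At that dose 0.332% of all genes were called, and leaving out any array or context left 0 called members. An unadjusted limma p under 0.05 was found for 26 of the 162 members and 1872 of 14765 genes tested. Malat1 and Pvt1 had 0.68 and -0.44 at 50 nM, with adjusted p of 0.0926 and 0.0697. No member and 0% of all genes were called in the interaction of JQ1 with cell type by limma, with 9 of the 162 members and 1016 of 14765 genes at an unadjusted p under 0.05.

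Th1 cells after 24 hr of 500 nM JQ1 were set beside those after 6 hr, with 1 array per condition and no test. Malat1 differed from DMSO by 1.23 at 6 hr and 1.64 at 24 hr in unstimulated cells and by 1.82 and 1.87 in reactivated cells. Neat1 gave 0.98 and 1.79, then 1.95 and 2.26, and Pvt1 gave -1.65 and -0.78, then -1.15 and -1.16. At least 2-fold differences were found for 5 members upwards and 4 downwards at 6 hr and for 9 and 3 at 24 hr in unstimulated cells. The counts in reactivated cells were 9 and 6 at 6 hr and 5 and 4 at 24 hr. The share over all genes was not computed for these single arrays, so the counts are not read as a trait of the members.

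Th1 and Th2 cells were compared over 6 pairs matched for drug and state, with DMSO or JQ1. Treatments and states thus stood in for replicates. The p-values measure how steady a difference was over them, not variation between separate cultures. The DMSO pairs set Th1 arrays of 6 hr against the Th2 arrays of unclear time. Of the 162 genes 49 were called, 22 higher in Th1 and 27 lower, where 27.6% of all 14765 genes were called, 14% higher and 13.7% lower, and 30.5% of coding genes under the same rule. Only the DMSO pairs lie on 1 slide, and without them 26 members were called, with 27 for the DMSO and 50 nM JQ1 pairs alone. With median centring 8 were higher against 22 lower, when the arrays were centred on the spike-ins 8 against 13, and with the shifted loess values 5 against 10. Without either unstimulated array with 50 nM JQ1 32 members were called, and 6 in a fit without blocks.

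Dubr was higher in Th1 cells by 0.79, with Th1 values of 2.68 to 3.94 (median 3.52) and Th2 values of 1.45 to 3.50 (median 2.79), which overlap between but not within pairs. The pseudogenes Gm13315 (0.84) and H2-K2 (0.68) were also higher in Th1 cells, and 5031434O11Rik, 2610035D17Rik, Gpr137b-ps and 1700001L05Rik were lower, with differences of -0.82, -0.79, -0.65 and -0.65. A further 3 genes among the 5 largest differences each way had no symbol. H2-K2 lies among the class I histocompatibility genes, whose members share sequence. Of the hosts, Snhg6 was called higher (0.32) and Dancr lower (-0.25) in Th1 cells. Both calls are small beside the reactivation change of Dancr, and neither was made with the DMSO and 50 nM JQ1 pairs alone or without the DMSO pairs. Snhg6 differed by 0.75 in the unstimulated DMSO pair and by -0.01 to 0.39 in the others, and its unstimulated Th1 DMSO arrays differed by -1.05 between 24 and 6 hr. Among the small structural RNAs Rnu3b1 (0.61) and Rprl2 (0.46) were called higher in Th1 cells, and Rprl2 was at -0.07 when the flavopiridol pairs were included. Xist was called lower in Th1 cells at -0.60, although all mice were female, with both of its probes below 0 (-0.60 and -0.38). Airn was called higher (0.53), and Norad lower at -0.25 by its brightest probe and 0.06 by the mean of its probes.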

How the data were processed

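RNA of T helper cells (Cy3) and of naive CD4+ cells (Cy5) was hybridised to 24 dual-colour Agilent mouse arrays without dye swaps, after oligo-dT primed labelling with spike-in RNAs. The deposited scanner files, made by the authors with Agilent Feature Extraction 10.7.1.1, held the fluorescence intensity of 62976 spots per array, detection flags and a log10 ratio of Cy5 over Cy3. A processed table deposited beside them gave log2 values of 34710 probes. Its normalization is not given in the sources used here, and it served as an alternative.

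Median pixel intensities of both channels (the test plan had named the means) were background corrected with normexp (offset 50) and loess normalized within each array in limma 3.58.1 (R 4.3.3). Control spots were left out after background correction, repeated spots averaged, and ratios turned to Cy3 over Cy5. Repeated spots had a log2 SD of 0.107 to 0.16 per array, and the Cy5 reference differed between 276 array pairs by a median SD of 0.185. The number of arrays limits the precision. Genes were named through a RefSeq table (GRCm38.p6), and 139 of 162 members had a symbol.

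The labels state 1 biological replicate, so contexts (cell type and state) stood in for replicates, and p-values measure variation over contexts. For Th1 against Th2 cells treatments and states stood in instead, and for reactivation the pairs of cell type and time. Variation between separate cultures was not measured. A fit covered the genes that passed the Cy3 detection flag on 3 or more of the arrays in it. Linear models with context, pair or treatment as a block were fitted with lmFit and eBayes to all genes tested, with Benjamini-Hochberg adjustment and calls at an adjusted p below 0.05. The analysis code was tested on simulated data. Hosts, structural RNAs, microRNA genes and named lncRNAs were all eligible to be named, with at most 5 rises and 5 falls of other members per main comparison, called and in the same direction in every pair. Members and lists were chosen with earlier results of these data known, and Rn4.5s was added to the structural RNAs after its name, not its value, was seen. The arrays lay on 3 slides. Background correction, scaling, channel, source of values, probe rule, dim-probe filter, blocks, pairs and left-out arrays were varied.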

Additional observations from a re-analysis of the deposited data

Results flagged for a closer look

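The effect of 10 µM flavopiridol was tested for a difference between reactivated and unstimulated cells, and 10 named members passed the test (limma with Benjamini-Hochberg adjustment). The value is the change in reactivated minus that in unstimulated cells on the log2 scale, and it was -3.11 for Dancr, -2.56 for Snhg17, -2.12 for Snhg16, -1.44 for Snhg3, -1.55 for 4930417O13Rik, -1.40 for 1700001L05Rik and -0.84 for Norad. It was 1.71 for Gpr137b-ps, 1.47 for Gm12216 and 1.37 for Foxd2os. The first 6 genes had risen and the last 3 had fallen on reactivation without drug, in comparisons that share the DMSO arrays.

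The effect of 500 nM JQ1 was tested in the same way, and 13 named members passed. The difference was -1.08 for Dancr, -0.89 for Snhg17, -0.86 for Gm9199, -0.75 for Snhg16 and -0.64 for Snhg3. It was 1.57 for Mirt1, 1.36 for Neat1, 1.02 for 2010016I18Rik, 0.98 for 2610035D17Rik, 0.99 for Rnu2-10, 0.86 for Gm12216, 0.80 for Malat1 and 0.65 for Rprl2. The values of Malat1, Rnu2-10 and Rprl2 changed sign under spike-in scalings. Mirt1 already lay near its lowest level on the reactivated DMSO arrays. No group held more than 1 array, so no array could be tested against others of its group.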

How the results depend on the processing

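The labels give no replicate numbers and each condition had 1 array, so no pairing by replicate number could be fitted, and pairs and contexts served as blocks. Counts of called members over left-out arrays, or left-out contexts or pairs in brackets, were 37 to 52 (38 to 52) for reactivation, 32 to 40 for Th1 against Th2 cells, with 32 without either unstimulated 50 nM JQ1 array, 79 to 97 (69 to 89) for 10 µM flavopiridol, 62 to 73 (56 to 64) for 500 nM JQ1 and 0 for 50 nM JQ1. They were 2 to 36 (0 to 14) for flavopiridol by reactivation and 8 to 22 (4 to 13) for JQ1 by reactivation.

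Other settings moved some counts by over 1.5 times, and the cause was not tested. For Th1 against Th2 cells (49) median centring gave 30, spike-in centring 21, a spike-in shift after loess 15, a fit without blocks 6, the DMSO and 50 nM JQ1 pairs alone 27 and the pairs without DMSO 26. For 500 nM JQ1 (72) spike-in centring gave 43, the spike-in shift 26, no blocks 12 and Th1 pairs within slides 47. For 50 nM JQ1 (1) Cy3 alone gave 3, the deposited table and detection on every array 2 each, and median centring, both spike-in scalings, the software's ratio and no blocks 0. For flavopiridol by reactivation (15) spike-in centring gave 3, the spike-in shift 0, the software's ratio 5, slide as a random block 38 and no blocks 5. For JQ1 by reactivation (22) the same settings gave 130, 144 and 7 in turn, and no blocks 0, with the median of all genes moving from -0.01 to -0.99 and -1.18 under the spike-in scalings. For flavopiridol by cell type (0) the spike-in shift gave 4. All fits without blocks were chosen after seeing the data, as were those without a context or pair.

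Of 1466 called values of named genes recomputed under settings that left no array out, 1219 kept their direction and call, 218 lost the call and 29 changed sign. Of 1374 with arrays or pairs left out, 250 lost the call and 0 changed sign. Spike-in centring turned the 10 µM flavopiridol values of Rmrp (-0.11), Rnu12 (-0.12), Rpph1 (-0.092), Rprl2 (-0.10), Snora74a (-0.092), Gm11961 (-0.23), Gm4956 (-0.17), Tmem80 (-0.34) and 4833422C13Rik (-0.34), and those at 1 µM of Rpph1 (-0.033) and Snora74a (-0.031). With 500 nM JQ1 it turned Airn (-0.11), Rnu3b1 (-0.07), Snhg10 (-0.16), Snhg3 (-0.16), Snora74a (-0.18) and Xist (-0.19), and the spike-in shift turned Snhg10 (-0.055), Snhg3 (-0.059), Snora74a (-0.056) and Xist (-0.079). For JQ1 by reactivation spike-in centring and shift gave -0.34 and -0.37 for Malat1, -0.12 and -0.18 for Rnu2-10 and -0.39 and -0.52 for Rprl2. In Th1 against Th2 cells Norad was 0.064 with the mean of its probes and Rprl2 -0.067 over all 10 pairs. Probes of 1 gene differed in sign in up to 11 of 25 genes with several probes. After loess the spike-in median ranged from -0.77 to 0.76 between arrays, and no call is known beyond 1 culture per condition.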
